A study of Ovis aries with 3 samples.

Results

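Nephric tubule epithelial cells were followed in droplet single-cell RNA profiles of whole sheep embryos. A cell was taken as a member when it held at least 1 unique molecular identifier (UMI, a tag that counts 1 captured mRNA molecule) of at least 2 of the genes *CDH16*, *DCDC2*, *PAX2* and *PAX8*, and fewer than 5 UMIs of the red cell gene *AHSP*. The rule kept 376 of 31576 cells, after cells outside 200 to 6000 genes, 1000 to 30000 UMIs or 10% mitochondrial UMIs were dropped. The data hold 3 libraries: E19 HSTS, from an embryo of Hulunbuir short-tailed sheep at embryonic day 19, and E19 HS and E16 HS, from Hu sheep embryos at days 19 and 16. The HSTS animals typed in the study were homozygous for a short-tail point mutation of *T*, and the HS animals were homozygous for wild-type *T*. No embryo received a treatment. The label of E16 HS names 1 embryo, while the series text counts 3 E16 HS embryos, so pooling of embryos is possible. Values for the libraries are given in the order E19 HSTS, E19 HS, E16 HS. Each condition is 1 library, so breed, genotype, stage and library cannot be told apart, and all intervals between libraries cover counting error only, at the 95% level.

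The nephric duct grows caudally through the intermediate mesoderm, and the tissue beside it condenses into tubules, first of the transient mesonephros and later of the permanent kidney. In ruminant embryos the mesonephros is large and secretes urine before the permanent kidney does. PAX2 and PAX8 are paired-box transcription factors that specify this lineage, CDH16 is a cadherin of kidney epithelium, and DCDC2 is a doublecortin-domain protein of the primary cilium. A proximal tubule recovers protein, sugar, phosphate and amino acids from the filtrate, the distal segments recover salt and magnesium, and the duct drains them.

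Members made up 188 of 9618 kept cells of E19 HSTS (1.95%, exact binomial interval 1.69 to 2.25%), 178 of 10629 of E19 HS (1.67%, 1.44 to 1.94%) and 10 of 11329 of E16 HS (0.0883%, 0.0423 to 0.162%). The 2 E19 shares had overlapping intervals, and the E19 HS share was 19.0-fold that of E16 HS. That ratio was 8.24 under a stricter cell filter and 60.4 after thinning to 3000 UMIs a cell. Over all deposited barcodes, 189 of 12064 in E19 HS (1.57%) and 18 of 12645 in E16 HS (0.142%) met the rule. These shares follow from the choice of genes and are a description. Per 100 cells with fewer than 5 *AHSP* UMIs, the shares were 2.64, 1.93 and 0.107. On that base the intervals of E19 HSTS (2.28 to 3.04) and E19 HS (1.66 to 2.23) did not overlap. Of the cells with 5 or more *AHSP* UMIs, taken as red cells, 12 of 2499 in E19 HSTS, 1 of 1401 in E19 HS and 0 of 1993 in E16 HS held at least 2 of the 4 genes. The 12 cells of E19 HSTS had a median of 25158.5 UMIs, and 9 of them held *EMX2*. The rule favours deep cells. Members had a median of 12219, 10359 and 17219.5 UMIs, against 7079, 6284 and 8046 in the other non-erythroid cells. When each cell was thinned to 3000 UMIs before the rule was applied, 79, 56 and 1 cells met it, or 0.928%, 0.603% and 0.00999%, with 1106, 1345 and 1317 shallower cells left out.

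Most E19 members were chosen by the pair *CDH16* and *DCDC2* alone. *CDH16* was present in 170 of 188 members of E19 HSTS (90.4%), 152 of 178 of E19 HS (85.4%) and 5 of 10 of E16 HS. *DCDC2* was present in 97.3%, 97.2% and 40% of them. *PAX8* was found in 20.2% and 21.3% of the E19 members and in 8 of the 10 members of E16 HS, and *PAX2* in 8.51%, 7.30% and 30%. Only *CDH16* and *DCDC2* among the 4 genes were detected in 140 of 188, 132 of 178 and 2 of 10 members, while only *PAX2* and *PAX8* were detected in 2, 4 and 3. The E16 HS members were taken mostly through *PAX8*, and the planned test of members without *CDH16* and *DCDC2* could not be run on so few cells. Cells just outside the limit, with exactly 1 of the 4 genes, numbered 477, 539 and 405, and *PAX8* was that gene in 352, 399 and 314 of them. *EMX2* had a UMI in 83.8%, 73.4% and 50% of cells with 2 of the 4 genes, in 21.0%, 17.6% and 14.1% of cells with 1, and in 4.62%, 3.48% and 2.85% of cells with none. Among cells whose only gene of the 4 was *DCDC2* (92, 94 and 56 cells), *EMX2* was found in 69.6%, 50% and 30.4%.

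Genes that took no part in the choice were read to check the label. EMX2, a homeobox transcription factor needed for the urogenital tract, had a UMI in 159 of 188 members of E19 HSTS (84.6%), 129 of 178 of E19 HS (72.5%) and 5 of 10 of E16 HS, against 5.74%, 4.32% and 3.33% of the other non-erythroid cells. Of the red cells, 15.2%, 29.1% and 16.8% held *EMX2* too, at a median depth of 17925, 17742 and 14233 UMIs, and its source there was not tested. At 3000 UMIs a cell the shares with *EMX2* were 33.0%, 39.9% and 20% of members against 3.69%, 7.15% and 4.89% of red cells. *LHX1*, which encodes a LIM homeobox factor of the nephric duct and early nephron, was found in 41.5%, 33.1% and 70% of members and in 1.52%, 0.928% and 0.903% of red cells. The E19 members carried the label's markers, and many of the 10 E16 HS members carried *EMX2* or *LHX1* but few genes of a mature tubule.

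Members differed from the rest of the embryo in quality measures. Their median mitochondrial share was 6.01%, 5.41% and 3.36%, against 3.07%, 2.92% and 2.68% in the other non-erythroid cells. A mitochondrial share of 5% or more was seen in 124 of 188 members of E19 HSTS (66.0%), 110 of 178 of E19 HS (61.8%) and 1 of 10 of E16 HS, but in 13.7%, 9.87% and 10.3% of the others. The study's methods name 5% as the limit for high-quality cells and 10% as that for cells retained. Under a filter of 5% and 500 genes, 64, 68 and 9 members were kept and the shares of members fell to 0.767% and 0.732% in E19 HSTS and E19 HS, while E16 HS stood at 0.0889%. The highest 8% of doublet scores held 13.3%, 10.7% and 10% of members and 7.85%, 8.40% and 8.40% of the other cells. The libraries shared 38 to 42 barcodes pairwise, and no barcode was a member in 2 libraries.

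**Figure D1:**
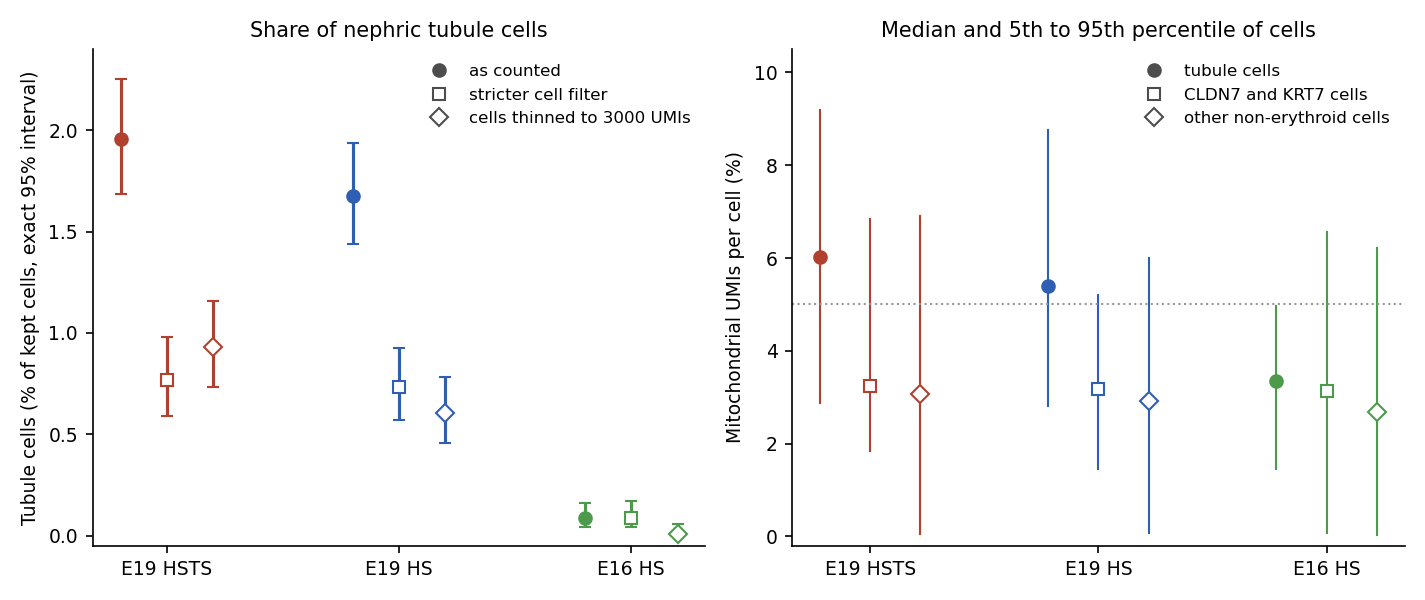
Left, members as a percent of kept cells in each library (filled circles), under the stricter cell filter (open squares) and after thinning to 3000 UMIs a cell (open diamonds), with exact 95% binomial intervals. Right, the median mitochondrial percent of UMIs (points) with the 5th to 95th percentiles of cells (bars) in members (filled circles), *CLDN7* and *KRT7* cells (open squares) and other non-erythroid cells (open diamonds), with 5% dotted; members stand at medians of 6.01% and 5.41% in E19 HSTS and E19 HS, above the 3.07% and 2.92% of the other cells.

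To find which genes set these cells apart, UMIs were summed per library over members and over the other non-erythroid cells, and the sums were compared with edgeR's quasi-likelihood test with the library as a block. Of 12212 genes tested, 1309 were higher in members (10.7%) and 1246 were lower (10.2%) at a Benjamini-Hochberg adjusted p under 0.05. Fold changes are on the log2 scale, members over other cells, and levels are UMIs per 1000000 UMIs (CPM). These libraries are the replicates of the contrast, and they differ in breed and stage. The E16 HS sum rests on 10 cells, and without it 2204 of 12773 genes were higher and 2490 lower, so levels are given for every library. Without E19 HSTS 269 of 12295 genes were higher and 178 lower, and without E19 HS 310 of 12275 were higher and 157 lower. List counts with a library left out are to be read beside these totals. The filter on low counts was run anew in each fit, so a list can have more genes tested there.

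The genes of protein, phosphate and amino acid uptake in the proximal tubule were high in the E19 members. Of 24 genes on the mesonephric and proximal tubule list, 20 were in the tables, 12 passed the filter on low counts and 11 were higher, with a median difference of 3.44 against -0.09 over all genes tested. LRP2 (megalin) is the large endocytic receptor of the brush border: it stood at 259, 225 and 42.9 CPM in members and at 15.4, 14.9 and 9.45 CPM in the other cells. Members lay above the others in every library, by 3.59 ± 0.30 (SE; edgeR adjusted p = 2.5e-12). SLC3A1 and SLC7A9 are the heavy and light chains of the cystine transporter. *SLC3A1* stood at 33.6, 16.6 and 0 CPM against 0.56, 0.44 and 0.27, a difference of 5.45 ± 0.38. *SLC7A9* stood at 15.2, 2.01 and 12.3 CPM against under 0.2 in the other cells of each library, a difference of 6.57 ± 0.53. *DAB2*, which encodes the adaptor that couples megalin to the coat of endocytic pits, was 1.74 higher over the 3 libraries, yet its levels of 363, 330 and 6.13 CPM put the E16 HS members below the 108 CPM of the other E16 HS cells. *SLC4A4*, *MIOX*, *FBP1*, *ANPEP*, *HNF4A* and *GATM* rose too. The calls of *LRP2*, *SLC3A1*, *SLC7A9*, *SLC4A4*, *MIOX* and *FBP1* were kept under every alternative that tested them, while those of *DAB2*, *ANPEP*, *HNF4A* and *GATM* were lost without either E19 library. Without E19 HSTS 6 and without E19 HS 7 genes of the list were higher. Without E16 HS, where more of the list passed the filter, 16 were. *CUBN*, the partner receptor of megalin, had too few UMIs for the test: 35 of 188 members of E19 HSTS (18.6%), 31 of 178 of E19 HS (17.4%) and 0 of 10 of E16 HS held a UMI, against 0.130%, 0.122% and 0.204% of the other cells.

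Salt-transport genes of the distal segments were high as well. Of 20 genes on the distal tubule and thick limb list, 15 were in the tables, 9 were tested and 7 were higher, with a median of 2.38. SLC12A1 is the sodium-potassium-chloride cotransporter on which loop diuretics act: it stood at 159, 90.8 and 6.13 CPM in members against 1.75, 1.31 and 0.0237 in the other cells, a difference of 6.34 ± 0.31 (edgeR adjusted p = 1.3e-18). CLDN19, a tight junction protein of magnesium reabsorption, stood at 108, 85.3 and 6.13 CPM against 0.634, 0.933 and 0.26, a difference of 6.74 ± 0.33. In E16 HS each of these 2 values is 1 UMI, so the differences rest on the E19 libraries. The sodium pump subunit gene *ATP1B1* (1121, 999 and 123 CPM) was higher by 3.33, and *CLDN10*, *WFDC2* and *TFAP2B* rose too. *TFAP2B* lost its call without either E19 library, and 6 genes were then higher. *UMOD* and *SLC12A3*, markers of the mature thick limb and distal convoluted tubule, had 0 UMIs in all 376 members, which allows shares of members with a UMI of up to 1.94%, 2.05% and 30.8% by library. The other non-erythroid cells had 0 UMIs of them too, so these zeros do not set members apart and say nothing of cells that express the genes below capture.

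Duct genes were higher in part. Of 17 genes on the nephric duct and ureteric bud list, 15 were tested, 6 were higher and *ROBO2*, a guidance receptor, was lower. CALB1, a calcium-binding protein of distal tubule and ureteric bud, stood at 126, 170 and 36.8 CPM against 2.80, 1.21 and 1.23, a difference of 5.98 ± 0.35 (edgeR adjusted p = 9.1e-17). GATA3, a zinc-finger factor of the nephric duct, stood at 11.6, 15.6 and 18.4 CPM against 4.17, 3.73 and 8.70, a difference of 1.64 ± 0.31 (edgeR adjusted p = 1e-04). The *GATA3* call was lost without the library block, under the stricter filter, at 3000 UMIs a cell, and without E19 HSTS (1.59) or E19 HS (1.23). With either E19 library left out, 4 genes of the list were higher, and *ROBO2* lost its call. RET, the GDNF receptor of the ureteric tip, was found in 2, 3 and 0 members and was not called (-0.50).

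Transcription factors of the lineage stood out by count: of 25 listed, 24 were in the tables, 20 were tested, 11 were higher and 2 were lower. *EMX2*, at 187, 160 and 85.8 CPM against 13.3, 10.2 and 6.21, was 3.79 ± 0.26 higher, and *LHX1*, at 52.4, 48.2 and 61.3 CPM against 4.26, 3.32 and 5.62, was 3.63 ± 0.24 higher. Both were higher in members of every library, E16 HS included. TFCP2L1, a factor of distal and collecting epithelium, had 31.6, 19.1 and 0 CPM and HNF4G, a nuclear receptor, had 25.2, 36.6 and 0 CPM, with differences of 6.31 and 5.59. *MECOM*, *TFAP2B*, *GATA3*, *ESRRG*, *HNF4A* and *HOXB7* rose too. *FOXC2* and *TCF21*, which mark podocytes and mesenchyme, were lower, by -2.79 and -0.82. Without E19 HSTS 5 and without E19 HS 6 genes of the list were higher: *TFAP2B*, *GATA3*, *ESRRG*, *HNF4A* and *HOXB7* lost their calls in both cases, and so did *FOXC2* and *TCF21*.

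A few progenitor and podocyte genes were lower in members, and most did not pass the test. Of 13 genes on the nephrogenic mesenchyme list, 9 were tested and 3 were lower: *HOXA11* (-3.55), *ITGA8* (-2.90) and *CITED1* (-2.10). Without E19 HS 2 of them were called, and without E19 HSTS 0 of them were. *SIX2*, *OSR1* and *GDNF*, which mark or act in the progenitors that condense around the ureteric bud, had 0 UMIs in the 188, 178 and 10 members, which allows shares of members with a UMI of up to 1.94%, 2.05% and 30.8%. *OSR1* and *GDNF* were rare elsewhere too and were not called, with bounds, from members set to 3 UMIs, of at least 1.93-fold and 1.09-fold lower. *SALL1* was found in 12.8%, 12.9% and 30% of members against 8.90%, 7.49% and 13.9% of the other cells, and its difference of -0.15 did not pass the test. Podocyte genes were found in 22.3%, 23.6% and 40% of members and in 831 of 6931, 964 of 9050 and 1878 of 9326 of the other cells, and summed to 40.8, 51.7 and 49.0 CPM against 38.2, 38.2 and 63.2. Of 14 such genes, 9 were tested, *PLA2R1* was higher (2.51 ± 0.37) and *FOXC2* and *TCF21* were lower. *WT1*, needed for podocytes and their progenitors, was found in 6, 7 and 1 members.

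**Figure D2:**
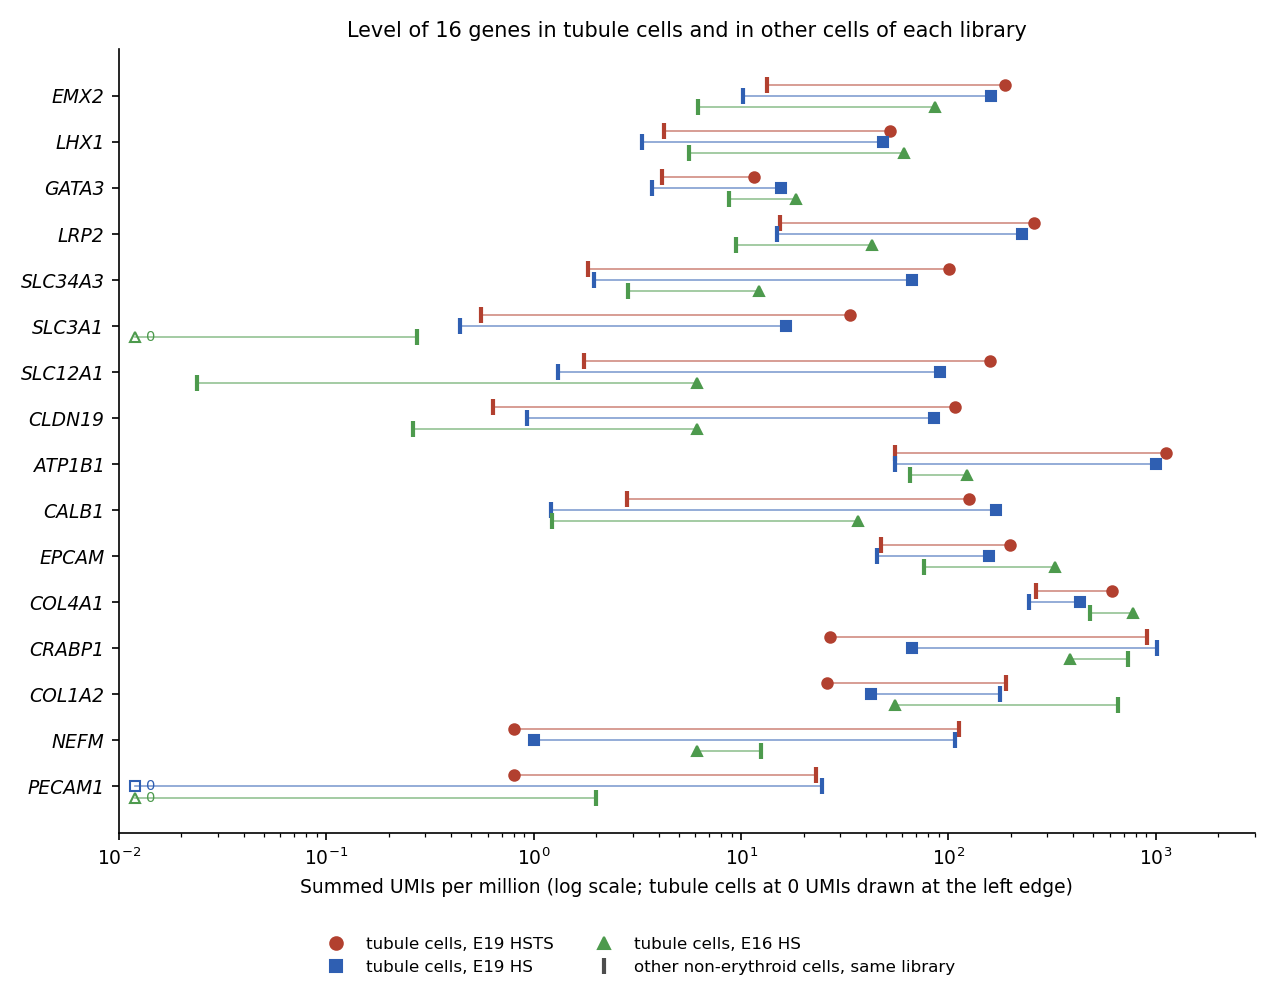
Levels of 16 genes outside the rule in UMIs per 1000000 UMIs on a log scale, in members (circles for E19 HSTS, squares for E19 HS, triangles for E16 HS) and, joined by a line, in other non-erythroid cells of the same library (upright ticks), with 0 drawn as an open point at the left edge. *EMX2* and *LHX1* are higher in members of all 3 libraries, while *SLC12A1* and *CLDN19* rest on 1 UMI each in E16 HS.

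Of the signalling genes, 29 were listed, 26 were tested, 6 were higher and 5 were lower. NPNT (nephronectin), the matrix ligand of integrin α8β1, stood at 26.4, 38.6 and 24.5 CPM in members against 3.46, 2.83 and 3.09 and was 3.27 ± 0.28 higher (edgeR adjusted p = 2.4e-12). The integrin chain that binds it, *ITGA8*, stood at 0.799, 0.502 and 6.13 CPM against 6.09, 6.95 and 6.27 and was 2 UMIs, 1 UMI and 1 UMI in the members. FREM2 and FRAS1, basement membrane proteins that act with nephronectin in the outgrowth of the ureteric bud, were higher by 2.14 and 1.85. The Notch ligand gene *JAG1* (57.6, 60.7 and 79.7 CPM against 18.9, 19.0 and 16.3), *BMP7* and *FGFR2* were higher by 1.69, 1.08 and 1.04. *SFRP1*, *ROBO2*, *FGF8* and *BMP4* were lower along with *ITGA8*. Without E19 HSTS 4 genes were higher and 1 lower, and without E19 HS 3 were higher and 1 lower, whereas *NPNT*, *FREM2* and *JAG1* kept their calls under every alternative.

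Epithelial genes rose with the tubule genes. Of 29 listed, 22 were tested and 15 were higher, with a median of 1.71, and these included the claudins *CLDN8* (5.36), *CLDN4* (2.72) and *CLDN7* (2.05). *EPCAM*, an adhesion molecule of simple epithelia, stood at 197, 157 and 325 CPM against 47.3, 45.3 and 75.9 and was 1.88 ± 0.23 higher. *KRT7* was 1.67 higher over the 3 libraries, but at 73.5, 76.8 and 30.6 CPM against 16.1, 16.6 and 46.4 it was lower in the members of E16 HS. The keratins *KRT18* (0.36), *KRT8* (-0.02) and *KRT19* (-0.44) did not pass the test. *CDH1*, E-cadherin, at 6.39, 5.02 and 6.13 CPM against 2.73, 2.75 and 2.64, missed the threshold at 1.06 ± 0.40 (edgeR adjusted p = 0.056). Of 14 basement membrane genes, 13 were tested and 6 were higher. *COL4A1*, a collagen IV chain, stood at 616, 432 and 772 CPM against 264, 244 and 479 and was 0.81 ± 0.21 higher. Without E19 HSTS 6 and without E19 HS 7 epithelial genes were higher, and *KRT7* and *COL4A1* lost their calls in both cases, while those of *EPCAM* and the 3 claudins were kept. Of the basement membrane genes, 3 were higher without either E19 library and 10 without E16 HS.

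Of 27 genes of cystic kidney disease and the primary cilium, 20 were tested and 4 were higher, among them *BICC1* (71.5, 73.7 and 12.3 CPM against 3.15, 2.77 and 1.94), *GLIS3* and *GLIS2*. The median of the list was 0.01. *PKD2*, a cystic disease channel, differed by 0.79 and *IFT88*, a ciliary transport protein gene, by 0.09, and neither passed the test. *BICC1* kept its call under every alternative, and 2 genes were higher without E19 HSTS and 3 without E19 HS. Retinoic acid genes were mostly lower: of 14 listed, 13 were tested, *RDH10* and *ALDH1A1*, enzymes of its synthesis, were higher, and 7 were lower, among them the binding proteins *CRABP2* (-2.13) and *CRABP1*. *CRABP1* stood at 26.8, 66.7 and 386 CPM in members against 907, 1012 and 731. Members were below the other cells in each library, by -3.50 ± 0.38, and those of E16 HS lay nearest to them. Without E19 HSTS 2 and without E19 HS 3 retinoic acid genes were lower, and *RDH10* and *ALDH1A1* lost their calls in both cases.

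Cell cycle genes were lower in part. Of 14 listed, 9 were tested and 4 were lower: *MCM5* (-0.99), *TYMS* (-0.90), *CCNB2* (-0.81) and *CCNA2* (-0.68). *MCM5*, a replication helicase subunit, stood at 72.3, 82.3 and 36.8 CPM in members against 124, 131 and 138. *TOP2A*, the topoisomerase of dividing cells, was found in 48.9% and 43.8% of members of E19 HSTS and E19 HS against 62.1% and 54.4% of the other cells, although members were deeper, and in 8 of 10 members of E16 HS. At 3000 UMIs a cell, the shares with *TOP2A* were 35.1%, 31.5% and 70% of members and 53.1%, 45.8% and 56.8% of the others. Its difference over the 3 libraries, -0.53, did not pass the test. Of the cell cycle list, 1 gene was lower without E19 HSTS, 0 without E19 HS and 8 without E16 HS.

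Transporters and enzymes were among the genes with the largest differences. These included *KYNU*, kynureninase of tryptophan breakdown (6.72), *PDZK1IP1* (6.69), *GIPC2* (6.57), *SLC6A18*, an amino acid transporter gene (6.03), *ATP6V1B1*, a proton pump subunit gene (4.94), *TRPM6*, a magnesium channel gene (4.83) and *PPARGC1A*, a coactivator of mitochondrial genes (4.65). *PDZK1IP1* stood at 119, 168 and 12.3 CPM against 0.941, 1.23 and 0.568. *PPARGC1A* stood at 36.4, 52.7 and 12.3 CPM against 1.77, 1.55 and 0.746. *SLC34A3*, a phosphate transporter gene, stood at 101, 66.7 and 12.3 CPM against 1.82, 1.95 and 2.85.

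Most tested markers of mesenchyme, nerve, heart and vessels were lower in members, while those of liver and yolk sac were not. All 8 mesenchyme genes were tested and lower, with a median of -3.28, for example *COL1A2* at 26.0, 42.1 and 55.1 CPM against 190, 177 and 660. Of the other lists, 4 of 5 tested neural tube genes (*SOX2* at -2.98, *PAX6* at -3.05), 4 of 4 cardiomyocyte genes (*MYL7* at -3.56), 3 of 5 endothelial genes (*PECAM1* at -5.73, *PLVAP* at -5.76) and 3 of 3 spinal interneuron genes (*NEFM* at -6.59) were lower. The endothelial list also held *KDR*, a VEGF receptor gene, which was higher (0.82 ± 0.25), a call lost without either E19 library and turned under the stricter filter (-0.12). In E16 HS, 2 or more neural tube genes were found in 60% of members against 26.5% of the other cells, at 447 against 518 CPM in all. With either E19 library left out, 6 or 7 mesenchyme, 3 or 4 neural tube, 3 cardiomyocyte, 2 endothelial and 2 interneuron genes were. Of 5 tested hepatic and yolk sac genes, *AFP* was higher: alpha-fetoprotein mRNA stood at 345, 259 and 73.5 CPM in members against 93.9, 69.9 and 52.9, a difference of 1.49 ± 0.27 (edgeR adjusted p = 4e-05). The call of *AFP* was lost without either E19 library. The hepatic list summed to 803, 300 and 754 CPM in members against 535, 470 and 204 in the other cells, above them in E19 HSTS and E16 HS and below in E19 HS. Of the members' sums, *APOA2* made 386, 34.6 and 441. *APOD* had 0 UMIs in all members, which makes it at least 13.7-fold lower than in the other cells with the members set to a floor of 3 UMIs, and *GAP43* of growing axons was at least 7.05-fold lower by the same bound.

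**Figure D3:**
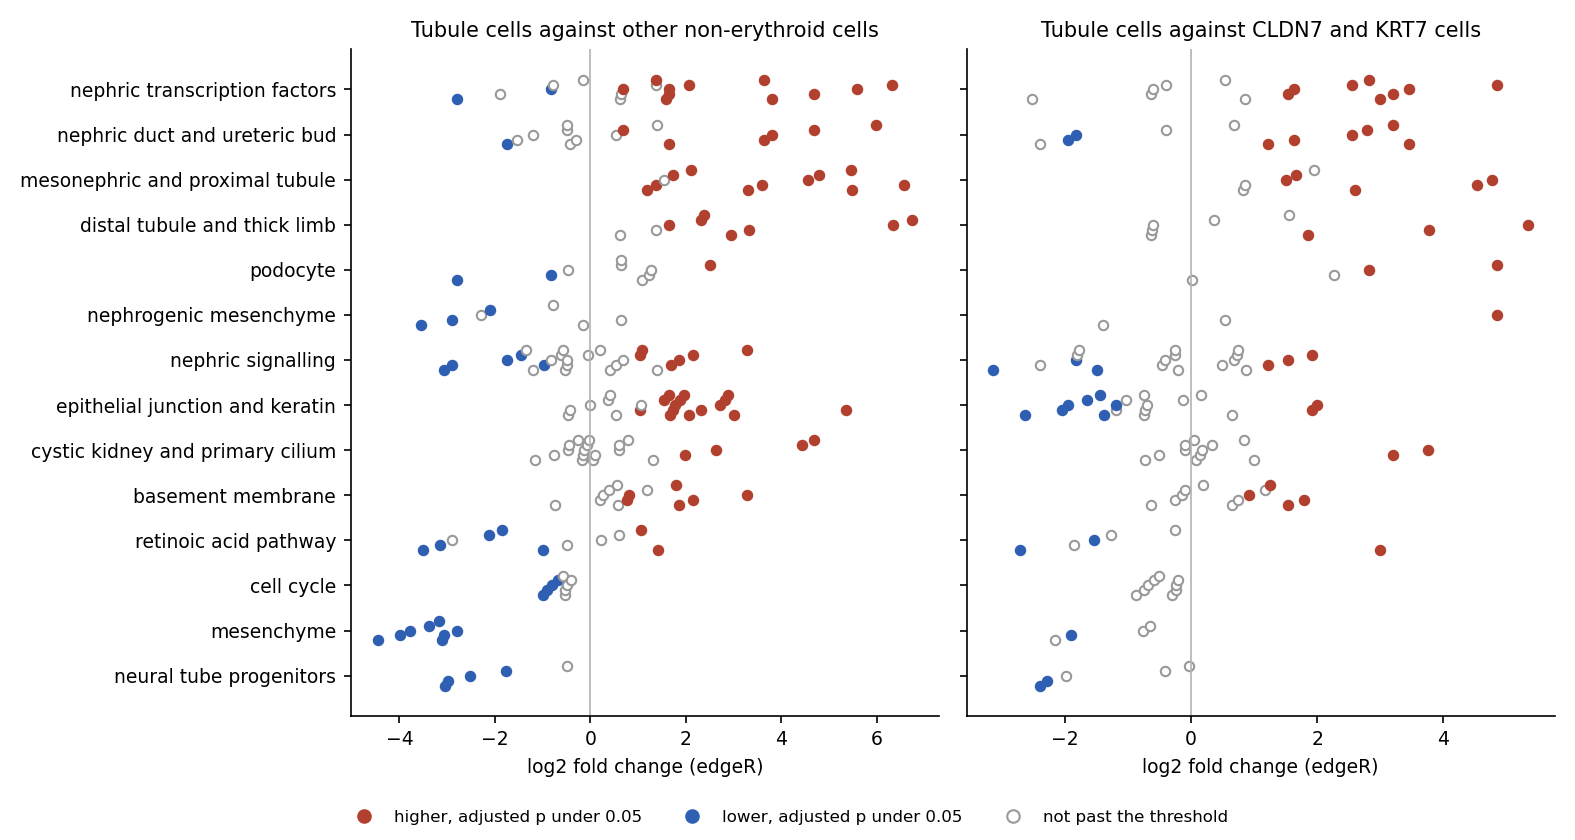
Log2 difference of each tested gene of a list with a UMI in members, members over other non-erythroid cells (left) and over *CLDN7* and *KRT7* cells (right) (edgeR, 3 libraries), with filled points for genes past an adjusted p of 0.05 (red higher, blue lower) and open points for the rest; height within a list has no meaning. On the left, the proximal (median 3.44) and distal (2.38) lists lie at positive values and the mesenchyme list (-3.28) at negative ones.

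Members were next set against other epithelial cells, those with at least 1 UMI each of *CLDN7* and *KRT7*, the genes by which the study named gut. There were 303, 358 and 667 such cells outside the members. Of the members, 58 of 188, 50 of 178 and 4 of 10 held both genes too and stayed on the member side. The 2 sets are thus not separate by these genes. Of 7927 genes tested with edgeR's quasi-likelihood test, 254 were higher in members (3.2%) and 180 were lower (2.27%). Without E16 HS, 1548 of 8153 were higher and 1400 lower. Without E19 HSTS 99 of 7794 were higher and 76 lower, and without E19 HS 71 of 8143 were higher and 56 lower. The comparison cells were chosen by a keratin and a claudin, so genes that follow these are raised among them by the choice.

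Tubule genes set members apart from these epithelia too. Of 8 tested proximal genes 5 were higher (among them *LRP2*, *MIOX*, *ANPEP* and *FBP1*), and of 8 tested distal genes 3 were higher (among them *CLDN19* and *SLC12A1*). *LRP2* stood at 7.35, 5.21 and 6.48 CPM in the *CLDN7* and *KRT7* cells, which put members 4.53 ± 0.53 higher (edgeR adjusted p = 0.005), and *CLDN19* stood at 3.11, 1.65 and 0 CPM, a difference of 5.34 ± 0.35 (edgeR adjusted p = 0.0023). Of 14 tested nephric transcription factors 8 were higher. *LHX1* was 3.46 ± 0.30 higher (6.79, 2.74 and 3.68 CPM in the comparison cells), and *EMX2* was 2.55 ± 0.27 higher (46.4, 18.7 and 9.71 CPM). *WT1* was also called (4.86 ± 0.90, edgeR adjusted p = 0.026), from 11, 8 and 1 UMIs in members against 0, 0 and 3 UMIs. *GATA3*, at 16.1, 14.3 and 38.5 CPM in the comparison cells, was not (-0.40). Without E19 HSTS 4 of these factors were higher, and without E19 HS 3 were, with *WT1*, *TFCP2L1*, *TCF21*, *HOXB7* and *MECOM* no longer called. Of the proximal genes 3 were higher without either E19 library and 14 without E16 HS.

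The simple keratins went the other way. *KRT19* stood at 399, 526 and 901 CPM in members against 1836, 1501 and 2851 in the *CLDN7* and *KRT7* cells, -1.95 ± 0.18 (edgeR adjusted p = 0.0027). *KRT8* (-1.38) and *KRT18* (-1.18) were lower as well. *CDH1* stood at 6.39, 5.02 and 6.13 CPM against 20.9, 26.9 and 14.0 and was lower by -2.05 ± 0.31, and *GRHL2*, a factor of surface and gut epithelium, by -2.64. *CDH6*, a cadherin of the early nephron, was higher, at 29.6, 37.6 and 30.6 CPM against 7.63, 8.78 and 5.58 (1.99 ± 0.23). *CXCL14*, a chemokine gene, was high in the comparison cells, at 662, 479 and 245 CPM against 1.20, 1.51 and 0 in members (-8.78 ± 0.35). *ALDH1A2*, the retinoic acid synthesis enzyme of trunk mesoderm, was 2.99 higher in members, and *COL4A1* and *COL4A2* were 1.25 and 0.91 higher. Without E19 HS, *KRT8*, *CDH1*, *GRHL2*, *CDH6*, *ALDH1A2*, *COL4A1* and *COL4A2* lost their calls, and 2 of 7 epithelial genes were lower, whereas *KRT19*, *KRT18* and *CXCL14* kept theirs.

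Members were not alike, and genes of the duct and of the proximal tubule tended to be found in different cells. The pairs described here were chosen after their values were seen, so they carry no test. Of the 23 *GATA3*-positive members of E19 HSTS, 21 held *CALB1* (91.3%), against 21 of the 165 without *GATA3* (12.7%). In E19 HS the counts were 17 of 18 (94.4%) and 25 of 160 (15.6%). *KRT7* followed *GATA3* likewise, in 20 of 23 against 44 of 165 cells of E19 HSTS and in 15 of 18 against 47 of 160 of E19 HS. *LRP2* ran opposite: it was found in 4 of 23 and 3 of 18 *GATA3*-positive members against 122 of 165 and 106 of 160 of the rest, at 17.1 and 28.2 CPM against 298 and 253. *SLC3A1* was found in 0 of 23 and 0 of 18 *GATA3*-positive members, which allows shares of cells with a UMI of up to 14.8% in E19 HSTS and 18.5% in E19 HS, against 46 of 165 and 26 of 160.

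The *CUBN*-positive members gave the mirror image. *LRP2* was found in 34 of 35 of them in E19 HSTS (97.1%) and 30 of 31 in E19 HS (96.8%), against 92 of 153 and 79 of 147 members without *CUBN*, and *SLC3A1* in 25 of 35 and 12 of 31 against 21 of 153 and 14 of 147. *KRT7* was found in 1 of 35 and 2 of 31 of them against 63 of 153 and 60 of 147, and *CALB1* in 1 of 35 and 1 of 31 against 41 of 153 and 41 of 147. *CLDN19*, on the distal list, went with *CUBN*: 28 of 35 and 24 of 31 *CUBN*-positive members held it, against 85 of 153 and 59 of 147, at 143 and 146 CPM against 97.9 and 68.8. *SLC12A1* did not, with 11 of 35 and 6 of 31 against 78 of 153 and 39 of 147. *EMX2* was found on both sides, in 34 of 35 and 23 of 31 *CUBN*-positive members and in 125 of 153 and 106 of 147 of the rest. Cells in which a low gene is found tend to be deeper: the *GATA3*-positive members had medians of 13704 and 12679 UMIs, and the *CUBN*-positive members of 15102 and 11581, in E19 HSTS and E19 HS. The part of depth in these shares was not tested. *LRP2* and *KRT7* each went up with 1 of the markers and down with the other. Among the 10 members of E16 HS, *LHX1* was found in 7, *GATA3* in 3, *CUBN* in 0, which allows a share of cells with a UMI of up to 30.8%, and *SLC12A1*, *CLDN19* and *CALB1* in 1 each.

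**Figure D4:**
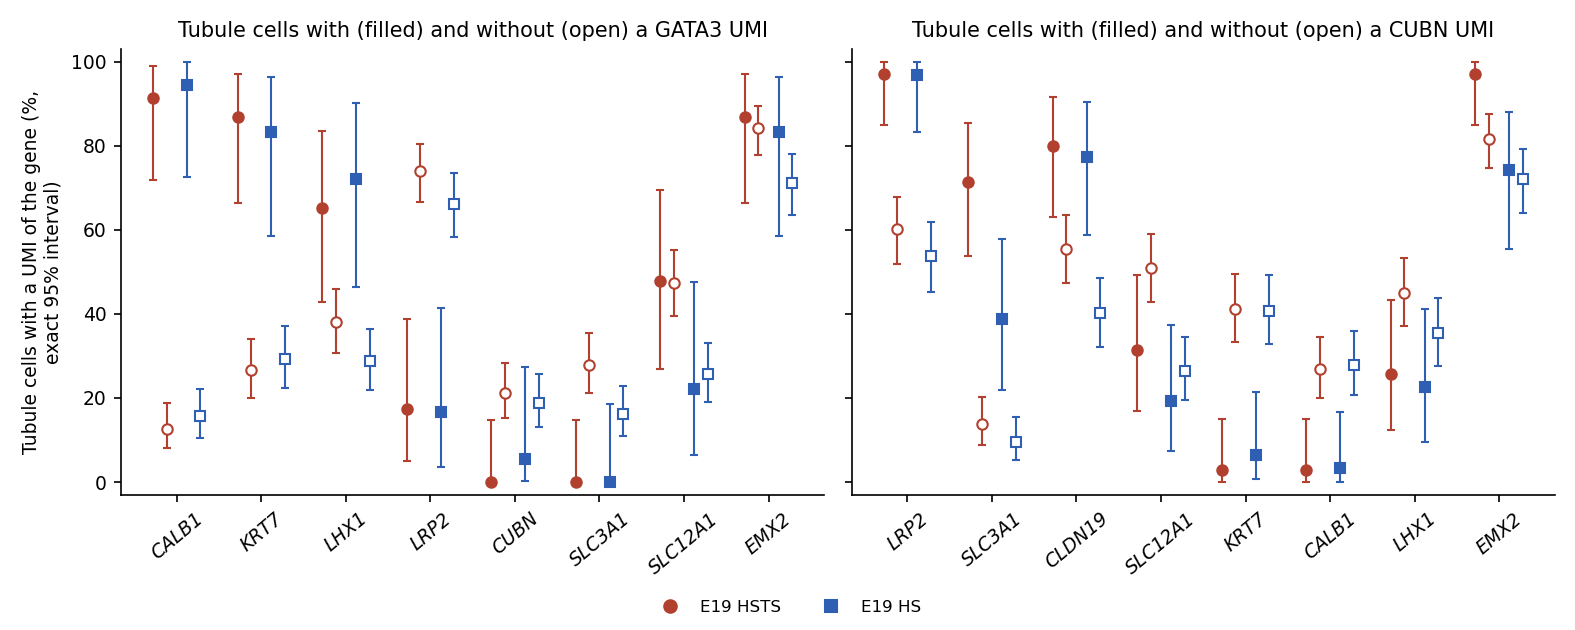
Percent of E19 members with a UMI of each gene, for members with (filled) and without (open) a UMI of *GATA3* (left) or *CUBN* (right), with exact 95% binomial intervals, in E19 HSTS (circles) and E19 HS (squares). *CALB1* and *KRT7* are high beside *GATA3* and low beside *CUBN*, *LRP2* and *SLC3A1* the reverse, and *EMX2* is high on both sides.

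Between the 2 E19 libraries, which differ in breed and *T* genotype, some tubule genes were close in members and others were not. *EMX2* was 1.18-fold higher in members of E19 HSTS than of E19 HS (exact interval 1.02 to 1.36), against 1.30-fold in the other cells. *LRP2* was 1.15-fold (1.02 to 1.30), *LHX1* 1.09-fold (0.829 to 1.43), *CUBN* 1.01-fold (0.692 to 1.47) and *DAB2* 1.10-fold (0.994 to 1.22). Larger ratios were seen for *SLC12A1*, at 1.76-fold (1.47 to 2.11), found in 89 of 188 and 45 of 178 members, *SLC3A1* at 2.03-fold (1.34 to 3.13), *SLC4A4* at 3.00-fold (1.74 to 5.46) and *SLC7A9* at 7.57-fold (2.73 to 29.2), the last from 38 and 4 UMIs. *CALB1* (0.740, 0.633 to 0.866) and *PDZK1IP1* (0.709, 0.604 to 0.831) were lower in E19 HSTS. In the other cells *CALB1* ran the opposite way (2.32, 1.74 to 3.11). These orders depended on the cells taken: under the stricter filter *CALB1* and *PDZK1IP1* were 1.80 and 1.25, and at 3000 UMIs a cell *EMX2* was 0.839. The make-up of the members differed too, when they were clustered on variable genes other than the 4 of the rule. The cluster with the most *SLC3A1* (117 and 75.1 CPM) held 36 of 188 E19 HSTS and 16 of 178 E19 HS members. Another held 17 and 49 members, with *SLC12A1* at 22.6 and 0 CPM and *COL11A1* among its leading genes. The part of make-up in the ratios was not tested. With 1 library each, no test between them is possible.

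Several of the largest ratios between the E19 libraries came from few cells, and that of *GAPDH* was shared with the whole library. *MYL7*, an atrial myosin light chain gene, had 156 UMIs in E19 HSTS members and 1 in E19 HS members (124-fold), and all 156 lay in 2 cells. *ACTC1*, cardiac actin, had 195 and 2 UMIs. Of the liver and yolk sac genes, *FGG* had 102 and 2 UMIs, the 102 in 4 cells, *AHSG* had 1081 and 66, with 99.0% of the 1081 in 5 cells, and *APOA2* had 965 and 69, with 97.9% of the 965 in 5 cells. In the other non-erythroid cells these 5 ratios were 1.64, 1.24, 1.42, 1.26 and 1.04. Without the cells of the highest doublet scores, the ratios in members were 2.45 for *MYL7*, 27.8 for *FGG*, 11.9 for *AHSG* and 20.7 for *APOA2*. *GAPDH* was lower in E19 HSTS, at 17 against 4314 UMIs and in 16 of 188 against 178 of 178 members, and the other cells showed the same, at 6.72 against 1901 CPM. *SLPI*, a secreted protease inhibitor gene, had 2 UMIs, or 0.799 CPM, in E19 HSTS members and stood at 67.7 CPM in E19 HS members (0.0118, 0.00141 to 0.0435), against a ratio of 0.406 in the other cells. *S100G*, a calcium-binding protein gene, had 164 and 390 UMIs (0.335, 0.277 to 0.403), against 1.39 in the other cells, and was found in 16.5% and 21.3% of members. *NDUFA4L2* had 9 and 52 UMIs (0.138, against 0.331 in the other cells), the 52 in 35 members, and *COL11A1*, a fibrillar collagen gene, had 71 and 266 (0.213, against 1.15). *COL1A1* had 28 and 68 UMIs, and 72.1% of the 68 lay in 1 cell.

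**Figure D5:**
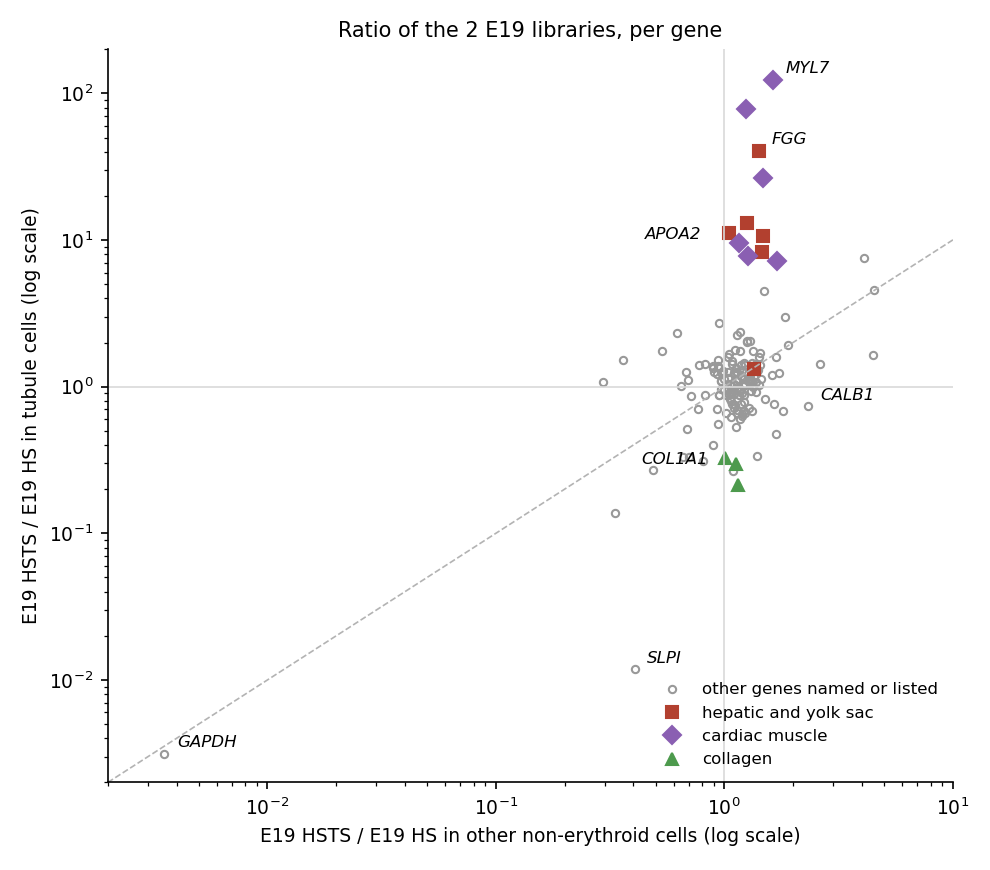
Ratio of E19 HSTS to E19 HS for each gene named or listed with at least 20 UMIs in E19 members, in members (vertical axis) and in the other non-erythroid cells (horizontal axis), both on log scales, with equality dashed. The 6 cardiac genes and the hepatic genes other than *AFP* lie at 7.17 or more in members and at 1.04 to 1.71 in the other cells, while *GAPDH* is low in members (17 against 4314 UMIs) and in the other cells alike.

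Between stages, several transport genes were lower in the 10 members of E16 HS than in those of E19 HS. *DAB2* stood at 6.13 CPM in E16 HS and 330 in E19 HS (0.0186, 0.00047 to 0.104), while in the other cells it was 2.07-fold higher in E16 HS. *SLC12A1* (0.0675, 0.0017 to 0.381) and *CLDN19* (0.0719, 0.00181 to 0.406) had 1 UMI each in E16 HS, *PDZK1IP1* stood at 0.0729 of its E19 HS level, and *LRP2* at 0.190 (0.0761 to 0.396). The metallothionein genes *MT1A* and *MT2* stood at 0.0372 and 0.0651 of their E19 HS levels. *LHX1* (1.27, 0.591 to 2.44) had an interval that holds 1. *TOP2A* was 3.66-fold higher in E16 HS members (3.13 to 4.27), against 0.994 in the other cells. The cell cycle genes did not go 1 way: *CDK1*, the mitotic kinase, was 3.19-fold higher (1.54 to 6.11, against 1.27 in the other cells), while *MCM5* stood at 0.447 (0.162 to 0.994, against 1.05). *EPCAM* was 2.07-fold higher (1.52 to 2.78), against 1.67 in the other cells, but 0.722 at 3000 UMIs a cell. *CRABP1* was 5.79-fold higher (4.22 to 7.87), against 0.722 in the other cells. *TF*, *TTR* and *APOA1* of liver and yolk sac were 97.7, 75.7 and 9.89-fold higher, and each lay in 3 of the 10 cells. When members were clustered on their variable genes other than the 4 of the rule, all 10 E16 HS members fell in 1 cluster. It also held 33 of the 188 E19 HSTS members and 22 of the 178 E19 HS members. Its leading genes *ACTC1*, *SERPINA1* and *TTR* were found in only 10.8%, 15.4% and 13.8% of its cells. The E19 HS members of that cluster had 88.7 CPM of *LRP2*, 73.3 of *SLC12A1*, 193 of *EPCAM* and 513 of *TOP2A*. The E16 HS members had 42.9, 6.13, 325 and 1324. Cells were grouped by likeness in expression, so a smaller gap within the cluster can follow from the grouping, and no conclusion on stage is drawn from it. The ratios between the stages rest on 163193 UMIs of 10 cells, against 1993323 UMIs of the E19 HS members.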

How the data were processed

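Whole-embryo cells of 3 libraries were analysed. Per the labels and the series text, embryos were dissociated with collagenase, captured with the 10x 3′ chemistry and counted with Cell Ranger 6.1.2. The UMI counts were used as deposited, for 26478 genes, of which 16670 have a symbol, with 2501965, 1993323 and 163193 UMIs in the members of E19 HSTS, E19 HS, E16 HS. Members and gene lists were chosen with earlier results of these data known. The 4 rule genes and *AHSP* were left out of the tests, and so were *CLDN7* and *KRT7* in the second comparison.

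UMIs were summed per library and cell set and tested in R 4.3.3 with edgeR 4.0.16 (quasi-likelihood, TMM, filterByExpr, library block, Benjamini-Hochberg). The script was tested on simulated data. DESeq2 1.42.0, RLE scaling, other cell filters, other member rules and thinning were alternatives. Between libraries, ratios carry exact conditional intervals, and 0 UMIs were set to a floor of 3 in ratios. Named genes were those of the 28 lists and, by a fixed rule, the 25 highest and 10 lowest called genes of each comparison and the 10 largest ratios each way. Doublet scores came from Scrublet in scanpy 1.11.5, and no cell was removed for them in the main setting. No genome was used here, so coordinates and sequences are not given. Results for some listed genes are not reported here.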

Additional observations from a re-analysis of the deposited data

Results flagged for a closer look

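For 3 genes, the ratio of members to other non-erythroid cells pointed in opposite directions in E19 HSTS and E19 HS, with intervals of counting error on either side of 1, and the difference between the libraries was not tested. *APOA2* stood at 1.07 in E19 HSTS and 0.100 in E19 HS, *FGG* at 1.36 and 0.0474, and *KRT19* at 0.871 and 1.25.

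The same was seen between the stages, from 10 members of E16 HS, and was not tested there either. Higher in members of E16 HS but lower in those of E19 HS were *APOA2* (5.29 against 0.100), *FGG* (8.85 against 0.0474), *TTR* (3.23 against 0.0803), *FGFR1* (2.56 against 0.512) and *TOP2A* (1.95 against 0.528). Lower in members of E16 HS but higher in those of E19 HS were *DAB2* (0.0569 against 6.35), *NID2* (0.174 against 2.17), *KRT19* (0.444 against 1.25), *COL18A1* (0.592 against 1.93), *KRT8* (0.598 against 1.54) and *KRT18* (0.659 against 2.09).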

How the results depend on the processing

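Shares of members moved with the member rule, the cell filter and thinning. With the stricter filter they were 0.767% in E19 HSTS and 0.732% in E19 HS; with at least 3 of the 4 genes 0.291%, 0.188% and 0 of 11329 cells of E16 HS (which allows up to 0.0326%); with at least 2 *CDH16* UMIs 1.28%, 0.950% and 0%; at 3000 UMIs a cell 0.928%, 0.603% and 0.00999%; and per cell with fewer than 5 *AHSP* UMIs 2.64% in E19 HSTS.

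Against the other cells (1309 genes higher, 1246 lower), the counts were 545 and 408 with DESeq2, 651 and 403 without the library block (61.8% of the calls higher, against 51.2%), 758 and 720 at 3000 UMIs, 595 and 698 under the stricter filter, 652 and 881 with 3 of the 4 genes, 1982 and 2467 with 2 *CDH16* UMIs, and 269 to 2204 and 157 to 2490 with 1 library left out. Against *CLDN7* and *KRT7* cells (254 and 180), they were 118 lower without the block, 654 and 538 without the filter on low counts, 167 higher under the stricter filter, 128 lower without the highest doublet scores, 626 and 503 with 3 genes, 1684 and 1534 with 2 *CDH16* UMIs, and 71 to 1548 and 56 to 1400 with 1 library left out. Single-gene outcomes, called or not called, were taken over the genes of the lists and those named by rule. Against the other cells the outcome was unchanged in 2474 combinations of gene and alternative, which include genes called in neither fit. A call was lost in 321 and gained in 84, and turned for *KDR* (-0.12, stricter filter). In the second comparison the outcome was unchanged in 1507, and a call was lost in 95 and gained in 156.

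Ratios of E19 HSTS to E19 HS turned for *ACTC1* (0.857 under the stricter filter, 0.560 with 3 genes), *MYH7* (0.857, and 0.544 without the highest doublet scores), *MYL4* (0.514 under the stricter filter), *TF* (0.187, 3 genes), *COL1A1* (2.65 without the highest doublet scores), *EMX2* (0.983 with 3 genes, 0.839 at 3000 UMIs a cell), *EPCAM* (0.928, 3 genes), and *CALB1* and *PDZK1IP1* (1.80 and 1.25, stricter filter). At 3000 UMIs a cell, E16 HS to E19 HS turned for *SLC12A1* (1.19), *CLDN19* (1.24), *OXCT1* (1.44) and *MSMO1* (1.44), where 0 UMIs were set to the floor, and for *EPCAM* (0.722). The E19 values of *ACTC1* (0.857 and 0.560) and *MYH7* (0.857) came from equal UMI counts, any floor included. They differ from 1 only through the UMI totals of the members. The causes were not tested. No paired analysis was possible because, between conditions, each library is the only replicate, whereas the cell sets were compared within libraries by the library block.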
